A study of Homo sapiens with 12 samples.

Results

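The subunits of oxidative phosphorylation that are encoded in the nucleus were followed, complex by complex, in RNA from 2 colorectal carcinoma cell lines. Members were the genes whose symbol begins with NDUFA, NDUFB, NDUFC, NDUFS or NDUFV and a number, is SDHA, SDHB, SDHC or SDHD, or begins with UQCR, COX4 to COX8 or ATP5, and whose count per 1000000 counts of a library (CPM) averaged at least 1 over the 12 libraries. The name pattern matched 183 genes, of which 82 were members, among 62426 genes in the count table and 13811 genes with a mean CPM of at least 1. Of the 82 members, 34 belong to complex I, 4 to complex II, 9 to complex III, 14 to complex IV and 18 to complex V. The other 3, the antisense gene NDUFB2-AS1 and the pseudogenes COX6A1P2 and UQCRFS1P1, entered by name and encode no subunit. The threshold fell between COX6B2 (1.46 CPM) and NDUFB2-AS1 (1.29 CPM) on the inside and NDUFA6-DT (0.805 CPM), NDUFV2-AS1 (0.710 CPM) and NDUFV2 (0.680 CPM) on the outside.

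HCT116 and SW480 are established lines grown from human colorectal tumours. Each line was sequenced as untransfected parental cells, as cells stably transfected with a pcDNA plasmid for the standard isoform of the surface receptor CD44 (CD44s-OE), and as cells transfected with a plasmid for its v6 variant (CD44v6-OE), with 2 libraries in each of the 6 groups. Transfected cells were selected with Geneticin. No empty-vector group was among the samples analysed here, so the plasmid, the selection and the isoform cannot be told apart in a comparison with parental cells. The column names of the count table call the 8 transfected libraries pools, and the labels do not say whether the 2 libraries of a group came from separate cultures, so p-values measure the spread between these libraries only.

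Oxidative phosphorylation passes electrons from NADH (complex I) and succinate (complex II) through ubiquinone to complex III, then through cytochrome c to complex IV and oxygen, and the proton gradient built by complexes I, III and IV drives ATP synthesis in complex V. Most subunits are encoded in the nucleus and imported, while a small core is encoded by mitochondrial DNA, so the complexes need gene expression from both genomes. The transcription factors NRF1, GABPA (of the ETS family) and YY1 are known regulators of many nuclear genes of this pathway.

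Libraries held 43102156 to 52811889 counts, and a count of 0 allows 0.114 to 0.139 CPM, for counting error only. CD44 itself did not stand above parental in the groups named for it. The HCT116 pairs were 539 and 540.1 CPM (parental), 571 and 516 CPM (CD44s-OE) and 503 and 507 CPM (CD44v6-OE). The SW480 pairs were 187 and 161 CPM (parental), 179 and 205 CPM (CD44s-OE) and 134 and 146 CPM (CD44v6-OE). The count sums all isoforms, so it does not measure CD44s or CD44v6 by themselves. The study reported ectopic expression of each isoform in both lines, with RT-qPCR and western blot of these cells, which are not part of the data used here. The groups are named here by their labels alone. Of 9 colon epithelial markers 7 had a mean CPM of at least 1 (sum 4738 to 17620 CPM), while the summed markers of leukocytes (5 genes) and endothelium (2 matched genes) stayed between 0.512 and 2.12 CPM. The 6 fibroblast markers summed to 2.10 to 56.4 CPM and the 4 muscle markers to 5.54 to 21.0 CPM.

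Promoter sequence is shown for 8 members, first 4 that hold letters of those factors' motifs and then 4 that passed a test of a change with the CD44 labels and hold none. RefSeq windows of GRCh38.p14, 250 bases before to 50 after the start, were found for 65 of the 82 members. The letters searched, on both strands, were GCGCANGCG for NRF1, CCGGAAG for the ETS family and AAGATGGCG for YY1, and no 2 of them overlapped in a member's window. Each sequence below covers 150 bases before to 20 after the start, 5′ to 3′ on the strand of the gene, with matches in capitals.
SDHB: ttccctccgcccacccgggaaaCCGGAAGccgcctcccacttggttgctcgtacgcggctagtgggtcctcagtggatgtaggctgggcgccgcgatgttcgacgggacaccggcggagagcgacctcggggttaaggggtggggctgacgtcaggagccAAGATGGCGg
UQCRC1: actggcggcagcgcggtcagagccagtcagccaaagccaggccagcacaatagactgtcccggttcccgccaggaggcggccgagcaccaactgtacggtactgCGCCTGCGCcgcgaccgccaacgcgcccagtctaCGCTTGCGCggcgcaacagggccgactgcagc
NDUFA9: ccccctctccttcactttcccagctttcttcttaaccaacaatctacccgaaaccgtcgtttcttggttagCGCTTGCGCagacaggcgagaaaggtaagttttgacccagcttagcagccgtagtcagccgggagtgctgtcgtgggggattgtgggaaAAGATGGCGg
NDUFA12: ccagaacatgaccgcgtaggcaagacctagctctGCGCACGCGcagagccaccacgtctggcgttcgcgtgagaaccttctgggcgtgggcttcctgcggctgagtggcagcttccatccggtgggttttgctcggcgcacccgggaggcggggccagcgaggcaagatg
NDUFB10: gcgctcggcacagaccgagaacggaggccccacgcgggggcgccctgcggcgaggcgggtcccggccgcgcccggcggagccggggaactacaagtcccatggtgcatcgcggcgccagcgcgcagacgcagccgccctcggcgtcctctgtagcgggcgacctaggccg
ATP5PB: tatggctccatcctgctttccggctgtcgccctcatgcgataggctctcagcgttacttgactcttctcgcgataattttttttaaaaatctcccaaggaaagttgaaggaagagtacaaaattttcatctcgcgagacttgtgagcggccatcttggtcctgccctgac
ATP5MC1: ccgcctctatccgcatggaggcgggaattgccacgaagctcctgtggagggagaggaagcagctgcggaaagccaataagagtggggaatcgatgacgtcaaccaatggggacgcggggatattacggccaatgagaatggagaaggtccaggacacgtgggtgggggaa
NDUFB6: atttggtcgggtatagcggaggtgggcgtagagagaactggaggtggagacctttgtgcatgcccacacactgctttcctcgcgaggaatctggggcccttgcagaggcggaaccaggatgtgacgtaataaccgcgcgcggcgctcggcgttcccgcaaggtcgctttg

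These windows lie at chr1:17054013-17054182, - strand (SDHB), chr3:48609627-48609796, - strand (UQCRC1), chr12:4648964-4649133, + strand (NDUFA9), chr12:95003678-95003847, - strand (NDUFA12), chr16:1959388-1959557, + strand (NDUFB10), chr1:111449314-111449483, + strand (ATP5PB), chr17:48892637-48892806, + strand (ATP5MC1) and chr9:32573140-32573309, - strand (NDUFB6). SDHB, the iron-sulfur subunit of complex II, held the ETS letters and, just after its start, the YY1 letters. UQCRC1, a core subunit of complex III, and NDUFA9 and NDUFA12, accessory subunits of complex I, held the NRF1 letters, and NDUFA9 held the YY1 letters as well. UQCRC1 also held the YY1 letters, from base 23 after its start, past the end of the sequence shown. In the 300-base windows, 22 of 65 members (33.8%) held the NRF1 letters, against 16.8% of 10438 other genes with a mean CPM of at least 1 and 9.02% of all 27305 symbols in the table. The ETS letters were in 21 members (32.3%), against 22.2% and 12.2%, and the YY1 letters in 8 members (12.3%), against 4.56% and 2.14%. A gene with more than 1 window was counted once, if any of its windows held the letters. Any of the 3 was found in 41 of 65 members (63.1%), against 37.7% and 20.5%. By complex, it was found in 17 of 29 genes of complex I, 3 of 3 of complex II, 6 of 7 of complex III, 5 of 11 of complex IV and 10 of 14 of complex V. The NRF1 letters were in 9 of the 29 genes of complex I and in 1 of the 11 of complex IV. Of the 8 members that passed a test of a change with the CD44 labels, 7 had an entry and 1, SDHB, held any of these letters. These 7 are few, and their count was not tested against the 63.1% of members. These are matches of letters in fixed windows and describe no binding.

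Levels were compared between genes only per length, as TMM-normalized CPM per kilobase of the merged exons of a gene, averaged over the 6 groups. The median gene stood at 23.2 CPM per kb in complex I, 14.6 in complex II, 39.4 in complex III, 51.9 in complex IV and 42.0 in complex V. ATP5F1B, the catalytic beta subunit of the F1 head, was highest of all at 509 CPM per kb, with group means from 431 ± 73.9 in HCT116 CD44s-OE to 592 ± 5.36 in HCT116 parental (SD, n = 2). The highest genes of the other complexes were NDUFB7 (322), SDHB (51.2), UQCRC1 (134) and COX8A (305 CPM per kb). The lowest were NDUFA13 (0.891), SDHA (2.56), UQCRHL (1.76), COX6B2 (0.395) and ATP5MG (7.28 CPM per kb).

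**Figure D1:**
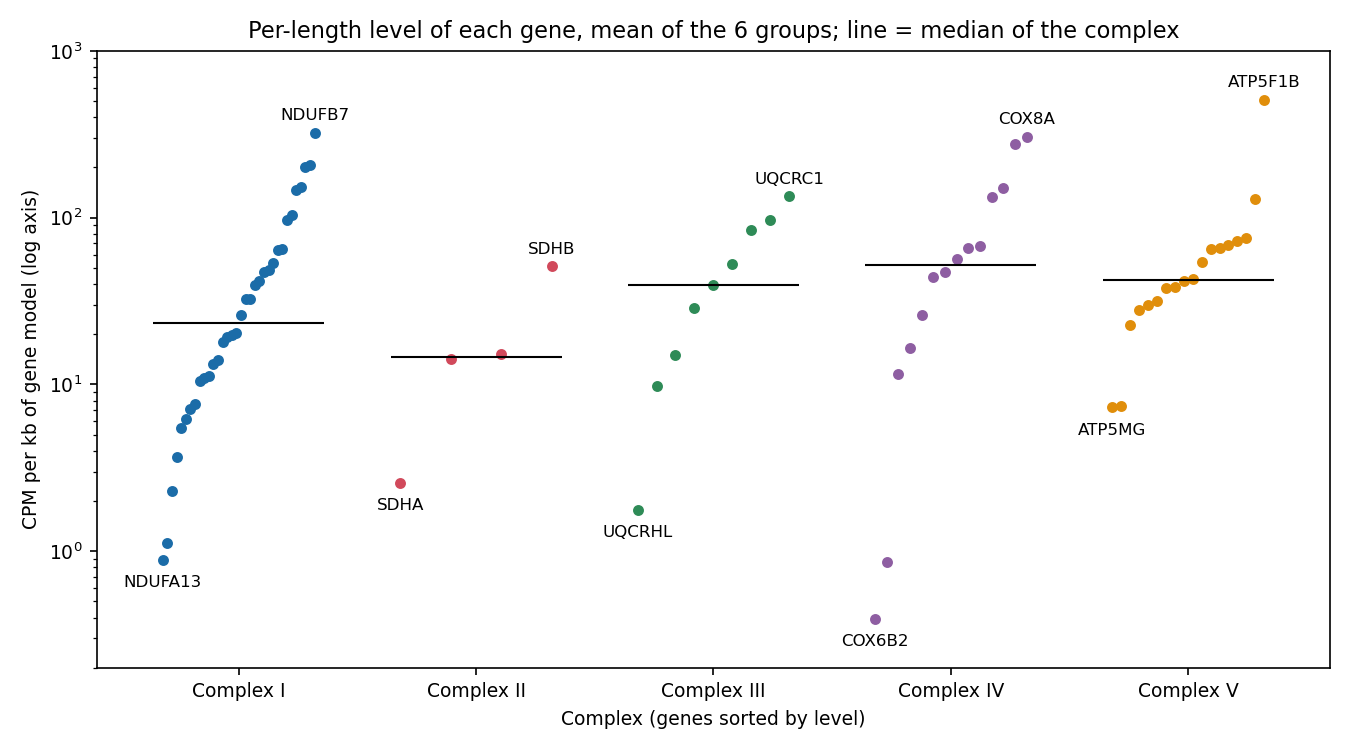
Level of 79 subunit, isoform and paralog genes per kilobase of gene model (TMM-normalized CPM per kb, log axis), averaged over the 6 groups and sorted within each complex, with the median as a line. Each complex spans more than 10-fold, from 0.891 to 322 CPM per kb in complex I and from 7.28 to 509 CPM per kb in complex V.

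These levels carry limits of the gene models and of the counting. The length used is that of all merged exons, which need not be the length of the RNA. For UQCRB it was 12600 bases, from 97235175 to 97247774, and for COX8A and NDUFB7, the highest of their complexes, 494 and 535 bases. Ranks and medians per length therefore depend on the models. Reads that lay over exons of more than 1 gene on the same strand were not counted, and 14 members have at least 10% of their exon bases under another gene. COX8A shares 35.4% of its exon bases, NDUFB8 33.8%, COX6B2 29.1%, SDHA 21.6% and NDUFA13 21.0%. The core subunit NDUFV2, at 0.680 CPM and outside the threshold, shares 28.4%, and NDUFA7, at 0.331 CPM, shares 32.5%. Their low level therefore cannot be read as low expression. For 48 members the reference also names at least 1 pseudogene (up to 17 for a single member), so reads of near-identical copies make their levels uncertain.

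Of the tissue-specific isoforms of complex IV, COX6B2, a testis isoform of subunit 6B, was a member (1.46 CPM), and the other 5 examined were near or at 0. COX4I2, the hypoxia-linked isoform of subunit 4, averaged 0.0130 CPM, COX7A1, known from heart and muscle, 0.00160 CPM, and the testis isoforms COX7B2 and COX8C 0.0100 and 0.0213 CPM, all under the floor that a count of 0 allows. COX6A2, the muscle isoform of subunit 6A, had 0 counts in the 12 libraries, which allows 0.114 to 0.139 CPM in each. Their widely expressed counterparts COX4I1, COX7A2 and COX6A1 were at 67.4, 56.4 and 47.4 CPM per kb. NDUFA4L2, a paralog of the complex IV subunit NDUFA4, was at 2.01 and 2.13 CPM in parental, 3.19 and 2.43 CPM in CD44s-OE and 1.73 and 1.68 CPM in CD44v6-OE of HCT116. NDUFA4L2 in SW480 was at 3.76 and 1.48 CPM in parental, 2.67 and 2.53 CPM in CD44s-OE and 2.84 and 2.58 CPM in CD44v6-OE. It passed no test.

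The first comparison asked which members differ between the lines before any plasmid was introduced. In SW480 parental against HCT116 parental, 23 members were higher and 29 lower at an adjusted p under 0.1 in edgeR's quasi-likelihood fit. That is 52 of 82, against 60.9% of all 19567 genes tested (31.7% higher and 29.2% lower), so the members differed between the lines about as often as other genes. An absolute log2 difference of 1.5 was passed by 4 members, NDUFA12, NDUFS5, NDUFB8 and the pseudogene UQCRFS1P1 (-3.46), and by 29.0% of all genes. The 19567 genes tested include genes below the members' threshold, a mean CPM of at least 1, which 13811 genes reach. The pseudogenes UQCRFS1P1 and COX6A1P2 are among the 29 lower members but in no complex. Complexes I, III, IV and V each had members that passed in both directions, with 13 higher and 9 lower in complex I, 2 and 4 in complex III, 3 and 4 in complex IV, and 5 and 9 in complex V. In complex II, SDHB alone passed and was lower, a call that was lost in the edgeR fits without the first or the second HCT116 parental library (adjusted p = 0.104 and 0.108) or the second SW480 one (0.246).

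Among complex I genes, NDUFA12 was the member with the largest rise. It stood at 33.0 and 26.7 CPM in parental, 29.5 and 29.3 CPM in CD44s-OE and 32.9 and 29.5 CPM in CD44v6-OE of HCT116. NDUFA12 in SW480 was at 66.7 and 109.6 CPM in parental, 84.4 and 101 CPM in CD44s-OE and 71.4 and 81.1 CPM in CD44v6-OE. The parental log2 difference was 1.56 ± 0.21 (adjusted p = 2.33e-05). Every SW480 library was above every HCT116 library. NDUFB1 (1.12 ± 0.20, adjusted p = 3.17e-04) and NDUFB11 (0.88 ± 0.17, adjusted p = 7.25e-04), accessory subunits of the membrane arm, were also higher in SW480. NDUFS5, an accessory subunit, was at 158 and 186 CPM in parental, 146 and 189 CPM in CD44s-OE and 156 and 149.8 CPM in CD44v6-OE of HCT116. NDUFS5 in SW480 was at 59.2 and 54.1 CPM in parental, 60.6 and 90.2 CPM in CD44s-OE and 58.3 and 58.2 CPM in CD44v6-OE. The parental log2 difference was -1.61 ± 0.19 (adjusted p = 6.74e-06), with no overlap between the lines. NDUFB8 (-1.82 ± 0.25, adjusted p = 2.77e-05) and NDUFB9 (-1.18 ± 0.15, adjusted p = 1.39e-05) were lower as well, and 33.8% of the exon bases of NDUFB8 are shared with another gene. Of the core subunits, which carry the flavin and the iron-sulfur clusters, NDUFV1 (0.42 ± 0.14, adjusted p = 0.0223) and NDUFS1 (0.49 ± 0.14, adjusted p = 0.00739) were higher in SW480. The call for NDUFV1 was lost without the first HCT116 parental library (adjusted p = 0.108) or the first SW480 one (0.178).

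The core proteins of complex III had opposite signs. UQCRC1 was at 329.8 and 370.4 CPM in HCT116 parental and 579 and 424 CPM in SW480 parental (0.52 ± 0.17, adjusted p = 0.0171), whereas UQCRC2 was at 186 and 162 CPM and 79.5 and 84.1 CPM (-1.09 ± 0.14, adjusted p = 1.71e-05). The groups did not overlap for either gene. For UQCRC1 the log2 difference was 0.27 without the first SW480 parental library and 0.43 without the first HCT116 one, and its call was lost in both edgeR fits (adjusted p = 0.201 and 0.126). The Rieske iron-sulfur protein UQCRFS1 had a log2 difference of 0.04 ± 0.14 (adjusted p = 0.84), and UQCRB and UQCRH were lower in SW480 at -1.06 ± 0.21 (adjusted p = 6.19e-04) and -0.80 ± 0.15 (adjusted p = 3.78e-04).

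In complex IV, NDUFA4 was at 87.4 and 98.3 CPM in parental, 99.3 and 85.0 CPM in CD44s-OE and 75.2 and 91.2 CPM in CD44v6-OE of HCT116. NDUFA4 in SW480 was at 237 and 209 CPM in parental, 221 and 235 CPM in CD44s-OE and 177 and 217 CPM in CD44v6-OE. The parental log2 difference was 1.26 ± 0.16 (adjusted p = 1.30e-05). COX4I1 went the other way, at 416 and 450.5 CPM in HCT116 parental and 255 and 193 CPM in SW480 parental (-0.95 ± 0.17, adjusted p = 3.79e-04). Both lay outside the range of the other line in all 12 libraries. COX6B1 (0.61 ± 0.16, adjusted p = 0.00562) and COX7B (0.54 ± 0.17, adjusted p = 0.0153) were higher in SW480, and COX6C (-0.78 ± 0.15, adjusted p = 5.76e-04) and COX7A2 (-0.62 ± 0.18, adjusted p = 0.00864) were lower. COX7B lost its call without the first HCT116 parental library (adjusted p = 0.111). COX7A2L, a paralog known as an assembly factor of supercomplexes, had 0.25 ± 0.22 (adjusted p = 0.352).

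In complex V the alpha and beta subunits of the F1 head parted. ATP5F1A, which encodes alpha, was at 503 and 523 CPM in parental, 425 and 399.5 CPM in CD44s-OE and 428 and 440.2 CPM in CD44v6-OE of HCT116. ATP5F1A in SW480 was at 189.6 and 189.9 CPM in parental, 208 and 209 CPM in CD44s-OE and 195 and 205 CPM in CD44v6-OE. The parental log2 difference was -1.43 ± 0.13 (adjusted p = 3.60e-07). ATP5F1B, which encodes beta, had a log2 difference of -0.16 ± 0.15 (adjusted p = 0.41). The ratio of ATP5F1A to ATP5F1B counts was 0.380 to 0.471 in the 6 HCT116 libraries and 0.149 to 0.206 in the 6 SW480 libraries. It was not divided by model length (10908 bases for ATP5F1A and 2238 for ATP5F1B). It is therefore read between the lines only, not as a balance of alpha and beta. ATP5MF, a subunit of the membrane part, was at 78.7 and 96.5 CPM in HCT116 parental and 244 and 234 CPM in SW480 parental (1.45 ± 0.17, adjusted p = 7.58e-06). ATP5F1E, the epsilon subunit of the head, was also higher (0.81 ± 0.18, adjusted p = 0.00195), and ATP5PD, of the peripheral stalk, was lower (-0.90 ± 0.16, adjusted p = 3.48e-04).

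The c-ring of complex V is built from 1 mature protein encoded by ATP5MC1, ATP5MC2 and ATP5MC3. ATP5MC1 was lower in SW480 parental (-1.29 ± 0.16, adjusted p = 1.35e-05), as was ATP5MC3 (-0.42 ± 0.17, adjusted p = 0.0451), while ATP5MC2 had -0.12 ± 0.16 (adjusted p = 0.535). ATP5MC3 lost its call without the second HCT116 or the second SW480 parental library (adjusted p = 0.259 and 0.2). Per length, ATP5MC1 made up 27.8% to 38.5% of the 3 genes' summed level in the HCT116 libraries and 20.2% to 24.7% in the SW480 libraries. ATP5MC2 made up 38.1% to 52.3% in HCT116 and 53.8% to 59.3% in SW480. The inhibitor ATP5IF1 was at 124 and 125 CPM in parental, 104 and 125 CPM in CD44s-OE and 112 and 114 CPM in CD44v6-OE of HCT116. ATP5IF1 in SW480 was at 124 and 119 CPM in parental, 111 and 140.1 CPM in CD44s-OE and 119 and 131 CPM in CD44v6-OE, and it passed no test in any comparison.

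Between the lines, the members of several chromosomes that passed all had the same direction. On hg19, the 3 members of chromosome 8 (NDUFB9, UQCRB and COX6C) were all lower in SW480, as were the 3 of chromosome 10 (NDUFB8, ATP5MK and ATP5F1C) and the 3 of chromosome 16 (COX4I1, NDUFB10 and UQCRC2). On chromosome 7, 3 of 5 members (ATP5MF, NDUFA4 and NDUFB2) were higher and none lower. Chromosomes 2, 5, 9 and 19 held members of both directions. For each member, the median log2 difference was taken over the other tested genes with a mean CPM of at least 1 whose centre lay within 5 megabases, which gave 10 to 224 neighbours. Of the 52 members that passed, 47 (90.4%) had the sign of their neighbours' median. Among all 9044 genes that passed and had at least 10 neighbours, 71.5% did. Over the 82 members, member and neighbour values had a Pearson r of 0.668 and a Spearman rho of 0.732, or an r of 0.708 without UQCRFS1P1. This describes 82 genes in the same 4 libraries, and windows of neighbouring members overlap.

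**Figure D2:**
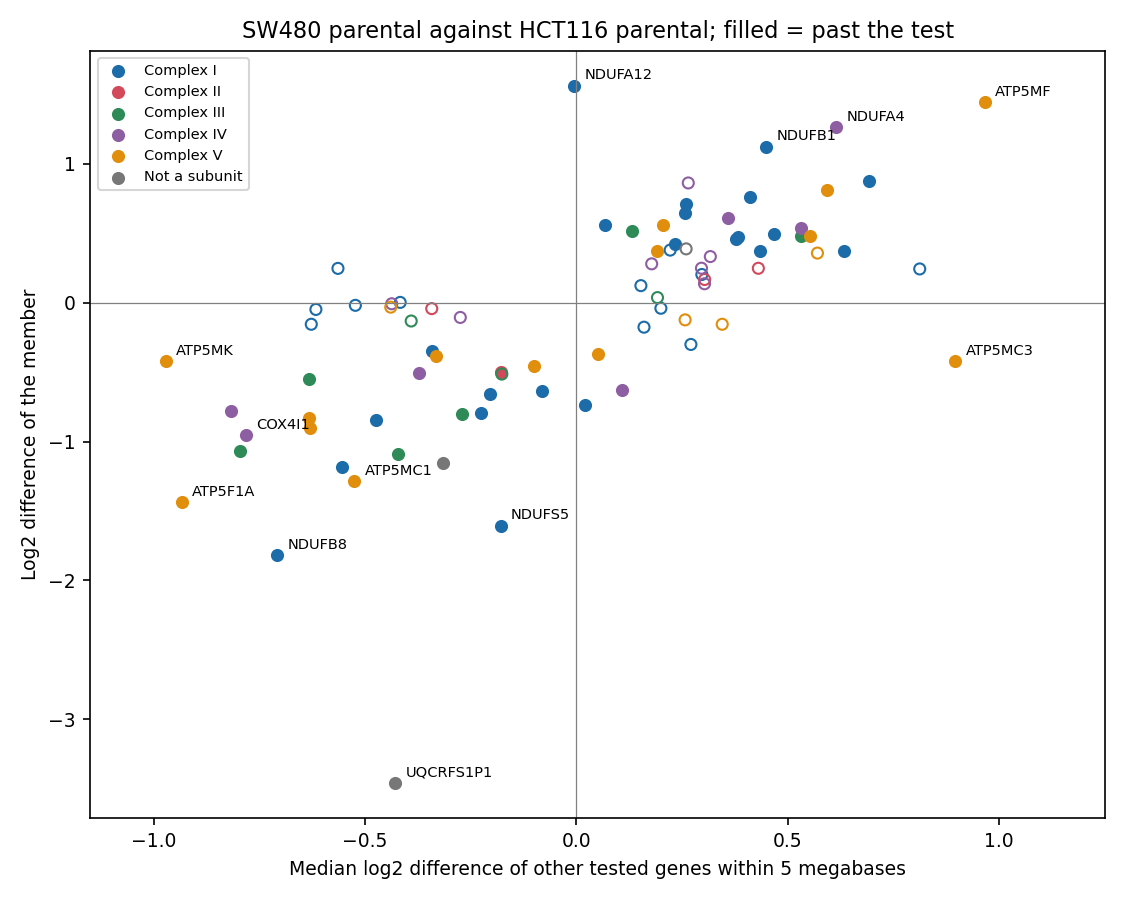
Log2 difference of each member between SW480 parental and HCT116 parental (vertical axis) against the median log2 difference of other tested genes within 5 megabases (horizontal axis), coloured by complex, with members past the test filled. Most filled points share the sign of their neighbours (47 of 52), while NDUFA12 at 1.56 stands beside neighbours at -0.01 and ATP5MC3 at -0.42 beside neighbours at 0.90.

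The neighbourhood value was of the same order as the member's own in several cases. ATP5F1A, on chromosome 18 from 43660214 to 43684300, had 28 neighbours with a median of -0.93 beside its own -1.43. COX4I1, on chromosome 16 from 85832239 to 85840674, had 88 neighbours at -0.78 beside -0.95, and ATP5MF, on chromosome 7 from 99046098 to 99063809, had 106 at 0.97 beside 1.45. NDUFB11, on the X chromosome, had 64 at 0.69 beside 0.88. The 5 members that passed against the sign of their neighbours were NDUFA12, NDUFB6, COX7A2, ATP5F1C and ATP5MC3. The part of genome position in the difference between the lines was not tested.

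The next comparisons asked whether the members changed in cells labelled as expressing an ectopic CD44 isoform. In HCT116 CD44s-OE against parental, 5 members were lower and 0 higher. All genes tested were lower in 5.71% and higher in 8.45% of cases (14.2% in either direction of 17335), so 5 of 82 is close to the share of all genes that were lower. No member also passed an absolute log2 fold change of 1.5, which 3.09% of all genes did. The 5 members came from complexes I, II, IV and V, and complex III had none.

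NDUFB10, an accessory subunit of the membrane arm of complex I, was at 288 and 322 CPM in parental, 173 and 196 CPM in CD44s-OE and 255 and 236 CPM in CD44v6-OE in HCT116. Its log2 fold change in CD44s-OE was -0.72 ± 0.13 (adjusted p = 0.014). Both CD44s-OE libraries were below all 4 others of the line. SDHB was at 149.8 and 150.5 CPM in parental, 119 and 85.7 CPM in CD44s-OE and 109 and 129 CPM in CD44v6-OE, and it fell in CD44s-OE, with a log2 value of -0.55 ± 0.17 (adjusted p = 0.0792). COX5A, a subunit of complex IV, was at 219 and 222 CPM in parental, 174 and 141 CPM in CD44s-OE and 179.5 and 189 CPM in CD44v6-OE, and its log2 value in CD44s-OE was -0.48 ± 0.13 (adjusted p = 0.0592). For both genes the CD44s-OE libraries lay below the parental ones, but for SDHB they overlapped the CD44v6-OE ones.

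ATP5F1B was at 1317 and 1334 CPM in parental, 1082 and 848 CPM in CD44s-OE and 1128 and 1158 CPM in CD44v6-OE, with a log2 fold change in CD44s-OE of -0.46 ± 0.14 (adjusted p = 0.0742). ATP5PB, the b subunit of the peripheral stalk, was at 177 and 162 CPM in parental, 104 and 124 CPM in CD44s-OE and 134 and 149.6 CPM in CD44v6-OE, with a log2 fold change of -0.57 ± 0.14 (adjusted p = 0.04). In both genes the parental pair was highest and the CD44s-OE pair lowest, without overlap. For ATP5F1B the CD44s-OE libraries were farther apart than the parental ones, at 965 ± 165 CPM (SD, n = 2) against 1325 ± 12.0 CPM.

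**Figure D3:**
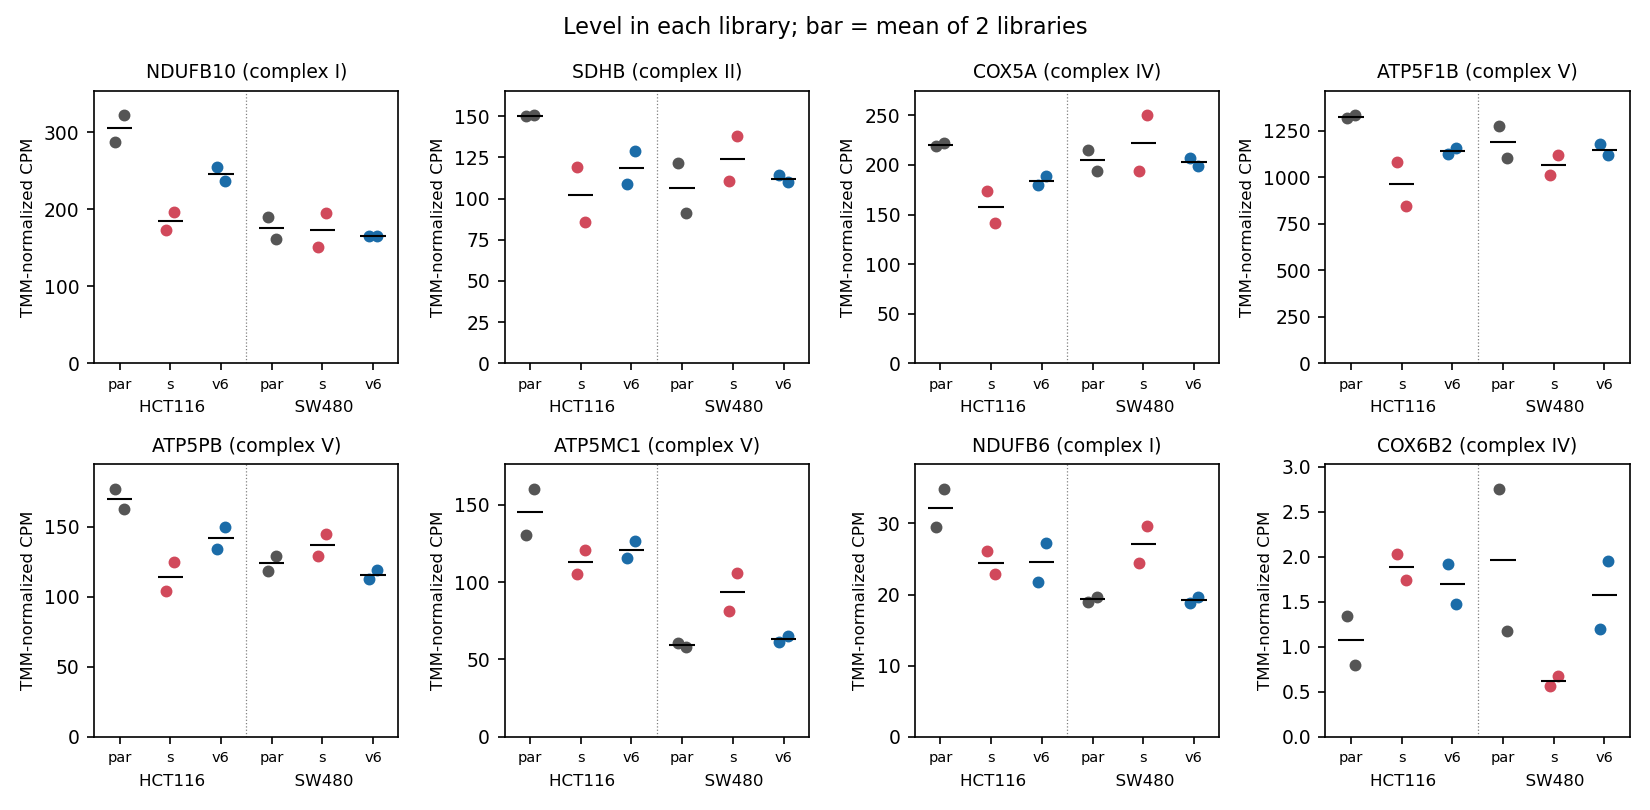
TMM-normalized CPM of the 8 members that passed a test of a change with the CD44 labels or of its difference between lines, in each of the 12 libraries, with the mean of 2 libraries as a bar (par, parental; s, CD44s-OE; v6, CD44v6-OE). NDUFB10, SDHB, COX5A, ATP5F1B and ATP5PB were lower in HCT116 CD44s-OE than in HCT116 parental, and ATP5MC1 was higher in SW480 CD44s-OE (81.0 and 106 CPM) than in SW480 parental (60.9 and 58.1 CPM).

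The number of members that passed in HCT116 CD44s-OE depended on single libraries. It was 0 without the second parental library, 1 without the first, 2 without either CD44v6-OE library, 8 without the second CD44s-OE library and 28, of which 6 were higher, without the first. The share of all genes called moved with it, from 1.4% without the second parental library to 28.6% without the first CD44s-OE library. NDUFB10 kept its call in all of these fits except the one without the second parental library (adjusted p = 0.15 by edgeR). The median log2 fold change of the 82 members was -0.12, against 0.04 over all genes tested, and 23 of 82 were positive. This median was -0.05 without the second parental library and -0.17 without the first.

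Other genes of the pathway were taken from lists of assembly factors, carriers and enzymes. In HCT116 CD44s-OE, where 5.71% of all genes were lower, 4 of 16 complex I assembly factors were lower (NDUFAF2, NDUFAF3, FOXRED1 and ACAD9) and 0 higher, with NDUFAF2 at -0.66 ± 0.21 (adjusted p = 0.0831). Of 24 complex IV assembly factors 4 were lower (COX10, SCO1, COX15 and TACO1), with COX10, the heme O synthase, at -0.58 ± 0.16 (adjusted p = 0.0617). None of the assembly factors of complex II (4 genes), complex III (6 genes) or complex V (4 genes) passed. Of 15 genes for electron carriers and ubiquinone synthesis 3 were lower, led by PDSS1 (-0.75 ± 0.18, adjusted p = 0.0365). Of 17 enzymes of the tricarboxylic acid cycle and pyruvate dehydrogenase 5 were lower, led by fumarase, FH (-0.79 ± 0.13, adjusted p = 0.0099), and 3 of 7 adenine nucleotide, phosphate and outer-membrane carriers were lower, among them SLC25A5 (-0.46 ± 0.14, adjusted p = 0.0758). CYC1 and NDUFAB1, subunits that the name pattern misses, were lower at -0.58 ± 0.18 (adjusted p = 0.0853) and -0.52 ± 0.12 (adjusted p = 0.032). Of 12 tested regulators of mitochondrial gene expression 3 were lower, MYC (-0.71 ± 0.23, adjusted p = 0.0939), ESRRA (-0.54 ± 0.15, adjusted p = 0.0577) and PPRC1 (-0.49 ± 0.16, adjusted p = 0.0875). Over these lists 24 of 107 tested genes were lower and 0 higher. The count was 0 without the second parental library, 6 without the first and 2 without either CD44v6-OE library. It was 42 lower and 5 higher without the first CD44s-OE library, and 43 lower and 1 higher without the second. These counts were chosen after the data were seen, and the share of all genes called moved as well.

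The 13 subunits encoded by mitochondrial DNA went the other way, with 9 higher and 0 lower, where 8.45% of all genes were higher, and a median log2 fold change of 0.87. The count was 0 without the second parental library, 11 without the first, 3 without the first CD44s-OE library and 8 without the second. Their share of all counts was 5.89% and 3.49% for the HCT116 parental pair, 10.4% and 8.27% for the CD44s-OE pair, and 5.90% and 5.85% for the CD44v6-OE pair. Of the markers of other cell types tested, 2 of 3 fibroblast genes were higher and 1 lower, 1 of 2 muscle genes was higher, and 0 of 2 leukocyte genes and 0 of 1 endothelial gene passed. The part of these in the members' change was not tested.

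In HCT116 CD44v6-OE, 0 members passed against parental, where 1.53% of all genes did. At an unadjusted p under 0.05 there were 4 (ATP5MC2, NDUFB10, NDUFS6 and NDUFB6), and DESeq2 called 0. Counts at this unadjusted cut, here and below, have no share of all genes beside them and are not read as changes of the members. Of the 82 members 72 had a negative log2 fold change, with a median of -0.12 against 0.00 over all genes, which was -0.05 without the second parental library and -0.20 without the first. The count became 3 without the first and 4 without the second CD44s-OE library, which leave the compared groups whole, and the background then rose to 9.8% and 10.2%. Between HCT116 CD44s-OE and CD44v6-OE, 5 members had an unadjusted p under 0.05, and DESeq2 called 1, where it called 0.771% of all 62426 genes. Those 62426 include genes of few or no counts, so this share is low as a background for the members. In edgeR's fit the count of members that passed was 0, against 0.813% of all genes. It became 12 without the first CD44s-OE library, where 12.9% of all genes were called, and 3 without the second, where 8.95% were. The nearest to the threshold was ATP5MC2, at 219 and 283 CPM in parental, 296 and 275 CPM in CD44s-OE and 171 and 203 CPM in CD44v6-OE, with a log2 difference of 0.61 ± 0.15 (adjusted p = 0.167).

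In SW480 CD44s-OE against parental, 1 member was higher and 0 lower, against 4.72% of all 17539 genes (2.50% higher and 2.22% lower). It was ATP5MC1, at 60.9 and 58.1 CPM in parental, 81.0 and 106 CPM in CD44s-OE and 61.5 and 64.9 CPM in CD44v6-OE, with a log2 fold change of 0.63 ± 0.17 (adjusted p = 0.078). The CD44s-OE libraries were above the other 4. The paralog ATP5MC2, at 254 and 206 CPM in parental, 328 and 355 CPM in CD44s-OE and 251 and 248 CPM in CD44v6-OE, had 0.55 ± 0.16 (adjusted p = 0.107), and ATP5MC3 had 0.23 ± 0.16 (adjusted p = 0.574). The call for ATP5MC1 was lost without the second CD44s-OE library (adjusted p = 0.516) or without either CD44v6-OE library (adjusted p = 0.169 and 0.167), in edgeR fits. The number of members past the test was 2, both higher, without the first parental library, where 6.82% of all genes passed. It was 3, of which 2 were higher, without the second, where 14.2% did.

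Of the pathway lists, 1 gene passed in SW480 CD44s-OE, the copper chaperone SCO1 of complex IV assembly, which was lower (-0.75 ± 0.16, adjusted p = 0.0344). In SW480 CD44v6-OE, 0 members passed against parental, where 0.570% of all genes did, with 1 (NDUFA6) at an unadjusted p under 0.05 and 0 by DESeq2. Between SW480 CD44s-OE and CD44v6-OE, 10 members had an unadjusted p under 0.05, and DESeq2 called 2, where it called 1.08% of all 62426 genes. That base again includes genes of few or no counts. In edgeR's fit the count of members that passed was 0, against 2.12% of all genes. Without either parental library the count was 6, of which 5 were higher, and the background 6.58% and 6.8%. Here 71 of 82 members had a positive log2 difference, with a median of 0.22 against 0.01 over all genes.

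That shift rested on 1 library. Against the mean of the 6 SW480 libraries, the second CD44s-OE library had a median member at 0.26 on the log2 scale, with 74 of 82 members above, and the first at -0.08, with 25 above. The other 4 libraries lay between -0.10 and 0.09. All complexes except complex II (0.07) took part, with medians of 0.27 in complex I, 0.27 in complex III, 0.25 in complex IV and 0.21 in complex V. Members took 1.15% of all counts in this library and 0.924% to 0.959% in the other 5. Without it the median log2 difference fell to 0.02 against CD44v6-OE and turned to -0.10 against parental. Without the first CD44s-OE library the median against CD44v6-OE was 0.37.

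**Figure D4:**
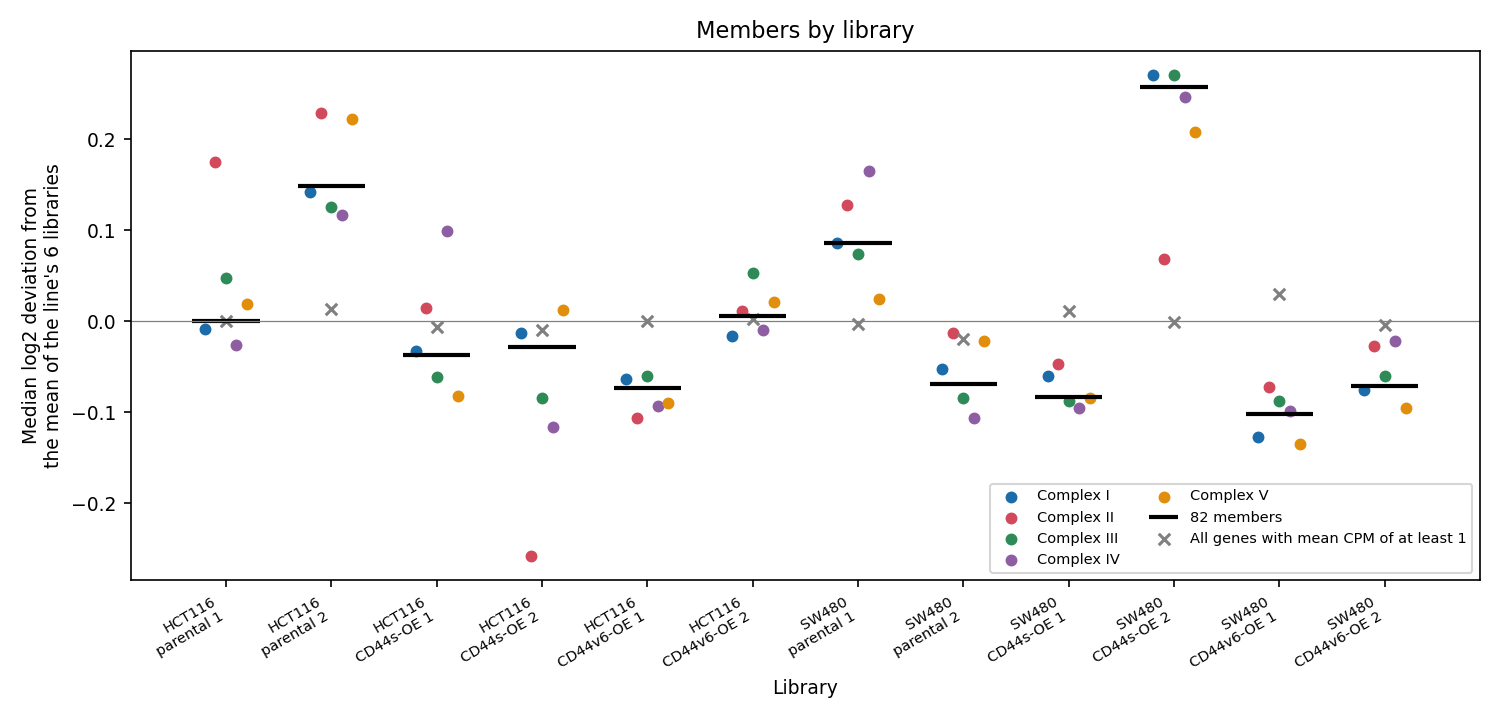
Median log2 deviation of the members from the mean of the 6 libraries of their line, for each library, shown for each complex (coloured points), for all 82 members (bars) and for all genes with a mean CPM of at least 1 (crosses). The second SW480 CD44s-OE library stands at 0.26 and the second HCT116 parental library at 0.15, while all genes stay near 0.

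The same library was also higher in other genes with short models. Between the second and the first SW480 CD44s-OE library, 78 of 82 members were higher, with a median log2 difference of 0.34. Among other genes the median was 0.26 for 435 genes with a model of up to 1000 bases, 0.15 for 2783 genes of up to 3000 bases and -0.07 for 10505 longer genes. The 81 genes of cytosolic ribosomal proteins stood at 0.39, with 76 higher, and the 13 mitochondrially encoded subunits at -0.50. Within the members the medians were 0.45, 0.36 and 0.27 for the same 3 classes of length. The part of model length in this difference was not tested.

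**Figure D5:**
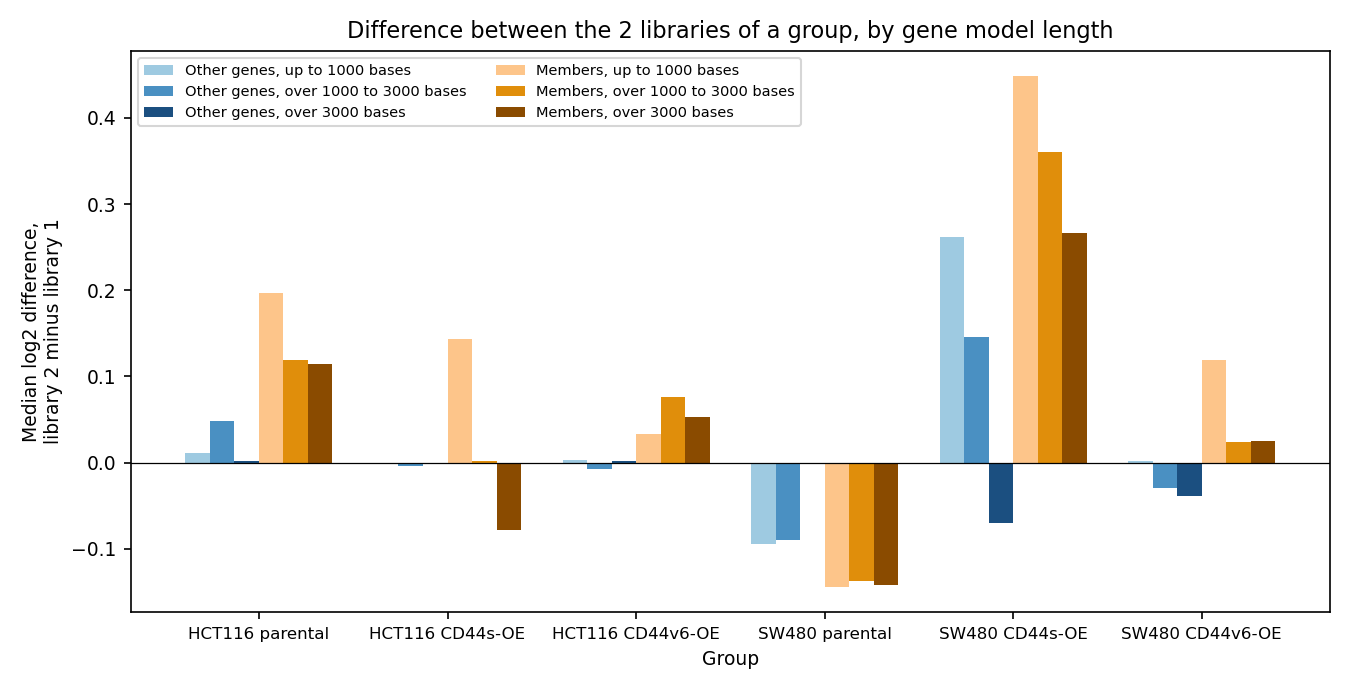
Median log2 difference between the second and the first library of each group, for other genes (blue) and members (orange) with models of up to 1000 bases, over 1000 to 3000 bases and over 3000 bases. Only in SW480 CD44s-OE among the 6 groups do all 3 classes of members exceed 0.2 (0.45, 0.36 and 0.27).

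In HCT116 the second parental library had a median member at 0.15, with 71 of 82 above the mean of the line, against 0.00 in the first. Summed over the 79 subunit genes, the HCT116 pairs took 0.994% and 1.06% of counts (parental), 0.903% and 0.948% (CD44s-OE) and 0.931% and 0.984% (CD44v6-OE). The SW480 pairs took 0.951% and 0.926% (parental), 0.958% and 1.15% (CD44s-OE) and 0.923% and 0.928% (CD44v6-OE). Complex V had the largest sum in all 12 libraries, 0.329% to 0.413% of counts, followed by complex I with 0.256% to 0.354%. Complex II had the smallest, 0.0190% to 0.0270%. These sums were not divided by length and covered unequal numbers of genes. Complex V was at 0.388% and 0.413% in HCT116 parental, above all 4 transfected HCT116 libraries (0.333% to 0.374%).

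The last comparison asked whether the change with a CD44 label differed between the lines, as the SW480 effect minus the HCT116 effect in a fit over all 12 libraries. For CD44s-OE, 3 members had a higher effect in SW480 and 1 had a lower one, against 3.92% of all 19567 genes (1.65% higher and 2.27% lower). ATP5MC1 had a difference of 1.01 ± 0.23 (adjusted p = 0.0344), from -0.36 in HCT116 and 0.63 in SW480. ATP5PB had 0.71 ± 0.20 (adjusted p = 0.0891), from -0.57 and 0.12. Of the pathway lists, FH had 0.72 ± 0.18 (adjusted p = 0.0627).

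NDUFB6, an accessory subunit of the membrane arm of complex I, had 0.88 ± 0.25 (adjusted p = 0.0914). It was at 29.5 and 34.9 CPM in parental, 26.1 and 22.8 CPM in CD44s-OE and 21.8 and 27.2 CPM in CD44v6-OE of HCT116. NDUFB6 in SW480 was at 18.9 and 19.7 CPM in parental, 24.4 and 29.7 CPM in CD44s-OE and 18.8 and 19.7 CPM in CD44v6-OE. The CD44s-OE pair was below the parental pair in HCT116 and above it in SW480. COX6B2, a testis isoform of the complex IV subunit 6B, had -2.46 ± 0.65 (adjusted p = 0.0703). It was at 1.35 and 0.80 CPM in parental, 2.03 and 1.74 CPM in CD44s-OE and 1.92 and 1.47 CPM in CD44v6-OE of HCT116. COX6B2 in SW480 was at 2.75 and 1.18 CPM in parental, 0.567 and 0.672 CPM in CD44s-OE and 1.20 and 1.95 CPM in CD44v6-OE. These levels are low, and the gene shares 29.1% of its exon bases. The SW480 CD44s-OE pair was below the other 4 libraries of the line, and the HCT116 CD44s-OE pair was above parental and overlapped CD44v6-OE.

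The count of 4 became 0 without the second SW480 CD44s-OE library and 0 without the second HCT116 parental library. It was 1 without the first HCT116 parental library or either HCT116 CD44v6-OE library, 2 without either SW480 CD44v6-OE library, and 6, all higher, without the first HCT116 CD44s-OE library. The share of all genes called moved as well. It was 1.16% without the second SW480 CD44s-OE library, 1.37% and 1.85% without the second and the first HCT116 parental library, 2.1% and 2.03% without the first and the second HCT116 CD44v6-OE library, 3.17% and 3.16% without those of SW480, and 4.84% without the first HCT116 CD44s-OE library. Of the 82 members 67 had a positive difference, with a median of 0.18 against 0.00 over all genes, which became 0.01 without the second SW480 CD44s-OE library. It was 0.35 without the first SW480 CD44s-OE library, 0.33 without the first SW480 parental library and 0.29 without the first HCT116 parental library. For CD44v6-OE and for CD44s-OE against CD44v6-OE, 0 members passed, where 0.409% and 0.491% of all genes did. At an unadjusted p under 0.05 there were 2 and 7 members in edgeR's fit, and DESeq2 called 0 in both.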

How the data were processed

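RNA-seq was analysed in 12 libraries. Per the labels and the study's methods, the authors aligned reads to hg19 with STAR 2.7.9a and counted them per gene with featureCounts of Subread 2.0.3, and they deposited raw counts and log2-like variance-stabilized values from DESeq2 1.30.1. The deposited counts were used for all values, and the variance-stabilized table for gene symbols only. Counts of 4 outnumber counts of 3 in all 12 libraries, as when each read of a pair is counted, so the floor for a count of 0 was set at 6 counts (3 pairs). Levels were CPM with TMM scaling. Tests used edgeR 4.0.16 (filterByExpr, glmQLFit with robust=TRUE, glmQLFTest, Benjamini-Hochberg adjustment over all genes tested, two-sided) on R 4.3.3, with a threshold of 0.1. The edgeR fit and test were tried on simulated counts. The 6 comparisons within a line used the 6 libraries of that line, and the others all 12. Values after ± are standard errors of log2 differences unless an SD is named. Alternatives included DESeq2 1.42.0, other scalings, no filter, a replicate block and leaving out each library.

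The members and lists were chosen with earlier results of these data known. Genes were named as core subunits, as isoforms and paralogs, as up to 3 members a complex and direction by size of change, as highest or lowest level, or as nearest to the CPM threshold. The promoter letters were shortened to the cores given after a first search, and the chromosome and promoter examples, and genes named for an unadjusted p, were chosen after their values were seen.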

Additional observations from a re-analysis of the deposited data

Results flagged for a closer look

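The change in CD44s-OE against parental differed between the lines for 4 members by the test of the difference itself, as the SW480 effect minus the HCT116 effect on the log2 scale. The difference was 1.01 for ATP5MC1, 0.88 for NDUFB6 and 0.71 for ATP5PB, and -2.46 for COX6B2, which had at most 2.75 CPM in a library. At an adjusted p under 0.05 in edgeR's fit, 1 of the 4, ATP5MC1, remained. None of the 4 remained without the second SW480 CD44s-OE library or without the second HCT116 parental library.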

How the results depend on the processing

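Of 62 member values past a test, 1200 values under alternatives gave 1091 on the same side of the threshold, 109 that lost it and 0 that changed sign, and 35 of the 52 members of the parental comparison passed in every alternative run. The counts of members past the test moved more, and the cause was not tested. At an adjusted p under 0.05 they became 2 (HCT116 CD44s-OE), 0 (SW480 CD44s-OE) and 1 (line difference in CD44s-OE), and with an absolute log2 change over 1.5 they became 0, 0 and 1, and 4 between the parental groups. With only the compared groups fitted they were 1 and 3 for HCT116 CD44s-OE and CD44v6-OE against parental, where 6.33% and 10.7% of all genes were called. For SW480 CD44s-OE they were 0 and 6 against parental and against CD44v6-OE, where 3.12% and 7.01% of all genes were. Without a filter the count for HCT116 CD44s-OE against CD44v6-OE was 1 (1.77% of all genes). For SW480 CD44s-OE it was 3 against parental (4.68%) and 3 against CD44v6-OE (2.5%). The line differences in CD44s-OE had 8 against parental (3.59%) and 1 against CD44v6-OE (1.08%). DESeq2 gave 1, 3, 2 and 7 for the first 4 of these comparisons (0.771%, 2.14%, 1.08% and 2.59% of all 62426 genes). The shares without a filter and by DESeq2 include genes of few or no counts, which the members' CPM threshold excludes. They are therefore low as a background for the members. For the line difference against parental DESeq2 called 1618 genes, where edgeR's filtered fit tested 19567. Scaling by total count gave 2 for SW480 CD44s-OE (4.6% of all genes) and 10 for its line difference (4.32%). Halved counts gave 2 for SW480 CD44s-OE (5.44%).

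Leaving out each library gave 0 to 28 members for HCT116 CD44s-OE against parental, 0 to 4 for CD44v6-OE and 0 to 12 between them. The ranges were 0 to 3, 0 to 0 and 0 to 6 for the same comparisons in SW480, 42 to 54 between the parental groups, and 0 to 6, 0 to 0 and 0 to 0 for the 3 line differences. Where this left 1 library in a group, it was assumed to vary like the other groups. The share of all genes called moved in these fits as well.

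Same-numbered libraries deviated together with correlations of -0.077 to 0.164 over 15 pairs of groups, so the replicate numbers were not taken as pairs. With a replicate block the count was 1 for HCT116 CD44s-OE against CD44v6-OE, where 1.59% of all genes were called. It was 0 for SW480 CD44s-OE against parental (4.15% of all genes, adjusted p of ATP5MC1 by edgeR 0.112). For the line difference in CD44s-OE it was 5 (3.75%), and between the parental groups 52 (60.5%).

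With 2 libraries a group, small differences could not be detected, and intervals for low genes such as COX6B2 rest on few counts.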

Other observations

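CD44-AS1, a gene antisense to CD44, was counted 97 and 119 times in the CD44v6-OE pair of HCT116, 154 and 177 times in that of SW480, and at most 3 times in each of the other 8 libraries. CD44v6-OE libraries were therefore set apart by this gene in both lines, while no member passed a test in CD44v6-OE in either.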
